A study of Mus musculus and Homo sapiens with 12 samples.

Results

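The genes described here are the mouse zinc finger protein genes whose transcripts were abundant in the chromatin-associated RNA of mouse embryonic stem cells (mESC). They were selected on the Input libraries: protein-coding genes with a symbol of Zfp and digits and at least 1000 counts summed over the 3 Input libraries, leaving out Zfp42 and Zfp352. Of 365 protein-coding genes with such symbols, 244 were members and 119 fell under the minimum. Fragmented RNA from the chromatin of wild-type mESC was sequenced either as it was (3 Input libraries) or after immunoprecipitation with an antibody to 5-methylcytosine, m5C (3 m5C-IP libraries). The cells were untreated, grown with LIF, CHIR99021 and PD0325901, and passaged on gelatin to remove feeder cells; the study's methods speak of biological samples, while the labels do not say whether the 3 replicates came from separate cultures, and p-values measure the spread between these libraries. K562 libraries of the same series, from human cells, were not used.

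C2H2 zinc finger proteins read DNA with repeated fingers, each a short fold in which a pair of cysteines and a pair of histidines hold a zinc ion. In rodents many of them also carry a KRAB box, which recruits TRIM28 and through it histone methylation, and they are best known for silencing endogenous retroviruses and for holding imprints in embryonic stem cells. The family grew by local duplication, so its genes lie in clusters of similar copies. In RNA, m5C is placed by enzymes such as the NSUN family.

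The fingers themselves are coded by short, repeated stretches. For the pair of members with the lowest and the pair with the highest log2 IP/Input, the first canonical finger coded within 1 exon is given, 5′ to 3′ on the coding strand, with the codons of the zinc-binding cysteines and histidines in capitals. The sequences were read from GRCm38 with the coding exons of GENCODE M21.
Zfp595: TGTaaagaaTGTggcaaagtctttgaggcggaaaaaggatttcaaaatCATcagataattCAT
Zfp383: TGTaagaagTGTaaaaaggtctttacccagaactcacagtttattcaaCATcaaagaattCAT
Zfp536: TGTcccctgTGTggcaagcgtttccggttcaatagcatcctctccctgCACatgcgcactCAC
Zfp12: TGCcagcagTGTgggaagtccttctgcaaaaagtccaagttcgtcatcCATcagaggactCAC

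Each stretch is 63 bases. They lie at chr13:67317898-67317960 on the minus strand (Zfp595), chr7:29914880-29914942 on the plus strand (Zfp383), chr7:37569534-37569596 on the minus strand (Zfp536) and chr5:143244616-143244678 on the plus strand (Zfp12). GC content was 33.3% in the Zfp595 finger and 31.7% in that of Zfp383, against 57.1% for Zfp536 and 50.8% for Zfp12. The stretches held 7, 11, 23 and 17 cytosines in the order printed. Identity between any pair ranged from 36.5% (Zfp383 and Zfp536) to 58.7%. These are 4 genes chosen for their IP/Input, and the comparison is a description.

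The depth of the libraries set what could be seen. Gene counts ranged from 29007088 to 34752646 in Input and from 473398 to 592324 in m5C-IP, so a floor of 3 counts stood for 0.0863 to 0.103 CPM in Input and 5.06 to 6.34 CPM in IP. Over all 244 members the summed Input counts ran from 1006 to 81742 with a median of 3427, and the summed IP counts ran from 1 to 1224 with a median of 37. In 95 members the 3 IP libraries together held fewer than 30 counts, and 10 members had 0 counts in at least 1 IP library. The 9 listed stem cell markers summed to 2051 to 2078 CPM in Input and 1064 to 1313 CPM in IP. Pou5f1, Nanog, Klf4, Esrrb and Tfcp2l1 were all present, while Sox2 had 0 counts in all 6 libraries and lies inside Sox2ot on the same strand. The 7 feeder fibroblast markers summed to 53.7 to 55.9 CPM in Input and 44.4 to 73.1 CPM in IP, with Lum at 0, and 6 markers of differentiated cells summed to 7.20 to 8.63 and 150 to 176 CPM. In bulk libraries fewer cells of a type and less RNA per cell cannot be told apart, and the part of these cells in the results was not tested.

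The same nesting touched the choice of members. Of the 119 Zfp genes under the minimum, 5 lay wholly inside another gene of the same strand, and all 5 had 0 Input counts. One of them was Zfp708 (chr13:67069399-67097976, minus strand, inside Gm28557), known for binding a class of retrotransposons. No member lay wholly inside another gene of the same strand, but 103 members overlapped some other annotated gene. Just inside the minimum were Zfp563 with 1006 Input counts, Zfp202 with 1020 and Zfp994 with 1028, with log2 IP/Input of -2.75, 0.35 and -1.94. Just outside were Zfp454 with 995, Zfp526 with 971 and Zfp623 with 959, with -1.47, -1.02 and 0.34. Each side held 1 gene slightly above 0 and 2 below it.

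Most members were lower in m5C-IP than in Input, as were most abundant protein-coding genes. Of 244 members, 211 were lower and 6 higher (edgeR quasi-likelihood test, adjusted p under 0.05), and 27 did not pass. Because Input counts chose the members and also form one side of this comparison, these counts and the values that follow are a description. Among all 20244 tested genes 42.1% were lower and 39.9% higher. Among 8566 other protein-coding genes with the same Input minimum 81.7% were lower and 5.84% higher, and the members' 86.5% and 2.46% are read against those shares. The median log2 IP/Input was -1.87 over the members, with quartiles of -2.39 and -1.07, against -1.54 over the other protein-coding genes and -0.17 over all tested genes. The scaling shifts all of these together: the all-gene median was 0.00 with RLE scaling and 0.80 with library size alone, and the members lay 1.70 below it on the log2 scale (-1.70) under all 3 scalings.

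At every Input level the median of the members lay below that of the other protein-coding genes. With 1000 to 2000 Input counts the median log2 was -1.40 over 64 members and -0.83 over 1623 other genes. With 2000 to 5000 counts it was -1.86 over 93 members and -1.26 over 2499 others, and with 5000 to 10000 it was -2.28 over 40 members and -1.60 over 1893 others. Above 10000 counts the medians were -1.99 over 47 members and -1.91 over 2551 others, so the most abundant members lay closest to other genes of their level. The members took 1.84%, 1.84% and 1.84% of the gene counts in the Input libraries and 1.16%, 1.24% and 1.17% in the IP libraries, a ratio of means of 0.647.

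**Figure D1:**
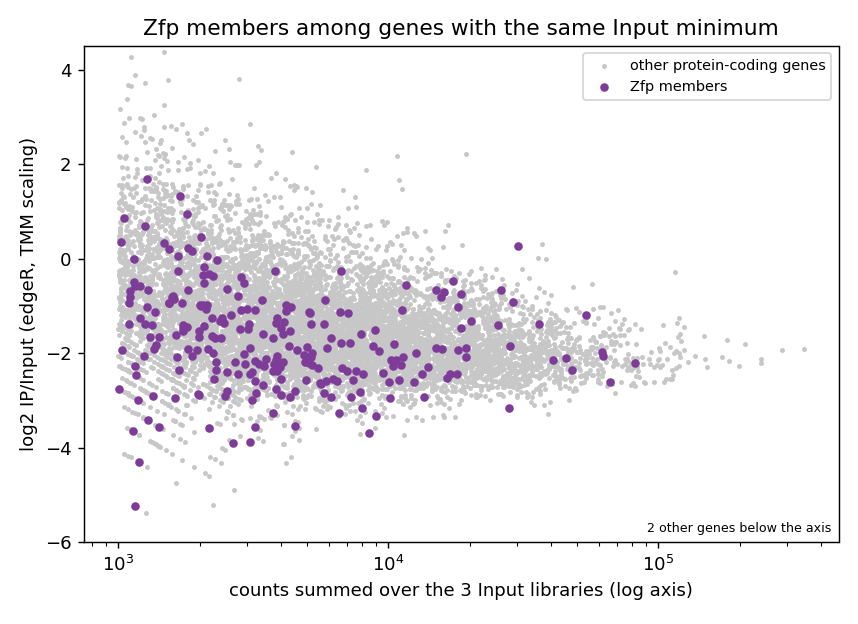
Log2 IP/Input of each gene (vertical axis, TMM scaling) against its counts summed over the 3 Input libraries (horizontal axis, log scale), for the 244 Zfp members (purple) and other protein-coding genes with at least 1000 Input counts (grey). The members fill the lower part of the grey cloud, and few lie above 0.

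Genes of related families were mostly lower as well, as were 81.7% of other protein-coding genes with the same Input minimum. BTB-domain zinc finger genes (Zbtb) had 22 of 30 lower and 1 higher, with a median log2 of -1.18. SCAN-domain genes had 6 of 8 lower (Zscan, median -1.81) and 5 of 6 lower (Zkscan, median -1.37). All 17 Zfp genes whose symbols end in letters were lower, with a median of -2.11. These families hold 6 to 30 genes each, and their differences from the Zfp members were not tested.

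The lowest members had almost no reads in the pull-down. Zfp595 (ENSMUSG00000057842.14, chromosome 13) had 343, 385 and 422 Input counts and 0, 1 and 0 IP counts, a ratio of scaled CPM of 38.6 in favour of Input with an exact 95% counting interval of 6.91 to 1526. Zfp383 on chromosome 7 had 380, 384 and 427 Input counts and 0, 0 and 2 IP counts, a ratio of 19.99 with an interval of 5.52 to 165. Zfp296, a reprogramming factor, had 372, 337 and 420 Input counts against 2, 1 and 0, a ratio of 12.6 with an interval of 4.31 to 61.4. In these 3 genes the wide intervals leave the size of the difference poorly known, and they cover counting error only.

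Zfp977 and Zfp639 had somewhat more IP reads. Zfp977 had 2459, 2925 and 3065 Input counts and 5, 7 and 10 IP counts, a log2 of -3.69 (SE 0.24, edgeR adjusted p = 7.69e-10). Zfp639 had 961, 1092 and 1144 against 3, 2 and 4, a log2 of -3.57 (SE 0.35). Zfp715 and Zfp819, neighbours of Zfp977 on chromosome 7, had a log2 of -3.89 (SE 0.47) and -3.87 (SE 0.46) from 6 and 7 IP counts, and with 1 library left out these ran from -5.78 to -3.23 and from -5.00 to -3.34. Zfp938 on chromosome 10 had -3.59 (SE 0.42). In all 5 the IP libraries lay below the Input libraries without overlap, which was a condition for naming them among the lowest. IP and Input did not overlap in 220 of the 244 members and in 7523 of 8566 other protein-coding genes.

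The most abundant members were all lower in IP, and all 5 lay outside the chromosome clusters. Of other protein-coding genes with over 10000 Input counts 98.1% were lower. Zfp704, which holds 1 finger by the pattern used here, measured 1170, 1176 and 1203 CPM in Input and 352, 207 and 234 in IP (CPM throughout are scaled by the TMM factors), a log2 of -2.20 (SE 0.10). Zfp292, first described as an activator of the growth hormone gene, with 14 fingers, measured 940, 963 and 974 in Input against 154, 179 and 142, a log2 of -2.60 (SE 0.08). Zfp407 had a log2 of -2.06 (SE 0.08). Zfp638, an RNA- and DNA-binding protein that silences unintegrated retroviral DNA, had 877, 884 and 910 against 215, 275 and 189, a log2 of -1.97 (SE 0.09). Zfp462, which holds heterochromatin in stem cells and has 33 fingers, was the least reduced of these, with 779, 783 and 780 against 294, 476 and 253, a log2 of -1.19 (SE 0.12). Their adjusted p-values in edgeR were at most 1.32e-07 (Zfp462). The call of Zfp462 depended on the scaling: its log2 was -0.21 with library size alone (edgeR adjusted p = 0.128) and 0.21 with Input thinned to the depth of IP.

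Members with a role in imprinting were all lower in IP, and each had over 10000 Input counts. At that level 98.1% of other protein-coding genes were lower. Zfp57, which keeps methylation on imprinting control regions, measured 405, 409 and 413 CPM in Input and 110, 134 and 98.9 in IP, a log2 of -1.84 (SE 0.10, edgeR adjusted p = 1.05e-10). Zfp445, which acts with it, measured 177, 182 and 182 against 15.2, 36.5 and 33.4, a log2 of -2.62 (SE 0.18). Zfp568, a repressor of a placental Igf2 transcript, measured 292, 287 and 298 against 97.4, 73.0 and 178, a log2 of -1.31 (SE 0.16). IP and Input did not overlap in any of the 3, nor in 2512 of 2551 other protein-coding genes with over 10000 Input counts. Zfp568 in IP replicate 3 stood well above the other pair of IP libraries. The log2 of Zfp568 was -1.78 to -1.01 when 1 library was left out. With library size scaling alone Zfp568 had -0.34 and did not pass (edgeR adjusted p = 0.0956).

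The retrovirus silencers Zfp809 and Zfp932 were both lower in IP, as were 86.5% of the members. Of other protein-coding genes 91.4% were lower with 5000 to 10000 Input counts, the level of Zfp809. With 1000 to 2000 counts, the level of Zfp932, 52.7% were lower. Zfp809, which binds the proline primer site of murine leukaemia virus, measured 73.6, 71.9 and 74.6 CPM in Input and 19.8, 10.9 and 17.9 in IP, a log2 of -2.20 (SE 0.23). Zfp932, which targets endogenous retroviruses, measured 29.4, 28.0 and 28.1 against 6.09, 1.22 and 4.77, a log2 of -2.87 (SE 0.40), and 75.3% of its exonic 31-base words occurred elsewhere in the genome. Both were past the threshold in every fit that left out 1 library.

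Members that work in transcription and the cell cycle spanned a wider range. Zfp207, a mitotic spindle factor, was the lowest, at 401, 405 and 410 CPM in Input and 59.4, 26.8 and 51.2 in IP, a log2 of -3.17 (SE 0.14). Zfp131 had -2.92 (SE 0.17), Zfp148 -2.36 (SE 0.09), Zfp281, a regulator of pluripotency exit, -2.03 (SE 0.27), and Zfp217 -1.95 (SE 0.18). Zfp143, a promoter-binding activator, was closer to even, at 95.8, 89.0 and 101.4 CPM against 38.1, 47.4 and 45.3, a log2 of -1.12 (SE 0.18). Among these 6 genes the IP libraries lay below the Input libraries without overlap. IP and Input also did not overlap in 220 of all 244 members and in 16757 of the 20244 tested genes.

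The paralogs Zfp423 and Zfp521, large proteins with 27 fingers each by the pattern, stood on opposite sides of even. Zfp423, a factor of adipocyte commitment, measured 224, 238 and 234 CPM in Input and 111, 186 and 124 in IP, a log2 of -0.71 (SE 0.13, edgeR adjusted p = 8.65e-05). Zfp521 measured 22.9, 29.0 and 25.9 in Input and 42.6, 57.2 and 48.9 in IP, a log2 of 0.94 (SE 0.21, edgeR adjusted p = 0.000599). With library size scaling alone the log2 of Zfp423 turned to 0.27 and no longer passed, and that of Zfp521 was 1.92. The difference between the paralogs was not tested.

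Few members were higher in the pull-down. Zfp536, a brain zinc finger gene of chromosome 7, measured 18.7, 17.95 and 18.8 CPM in Input and 54.8, 76.6 and 46.5 in IP, a log2 of 1.69 (SE 0.20, edgeR adjusted p = 1.05e-06). Zfp12 on chromosome 5 measured 23.8, 23.0 and 26.7 against 41.1, 68.1 and 70.3, a log2 of 1.32 (SE 0.20). Zfp791 measured 20.2, 17.4 and 16.97 against 45.7, 24.3 and 21.5, and its log2 of 0.70 (SE 0.27) rested on IP replicate 1: the range over fits without 1 library was 0.38 to 0.93, and 4 of 6 such fits did not pass. Zfp618 measured 28.3, 30.5 and 28.9 against 35.0, 40.1 and 44.1, a log2 of 0.45 (SE 0.20), and 5 of 6 such fits did not pass. Zfp710 had a log2 of 0.27 (SE 0.09), with 428, 441 and 442 CPM in Input and 400, 568 and 589 in IP, so that its groups overlapped. Zfp536, Zfp12 and Zfp521 passed in every such fit, and all 3 had fewer than 2000 Input counts, a level at which 16.02% of other protein-coding genes were higher.

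**Figure D2:**
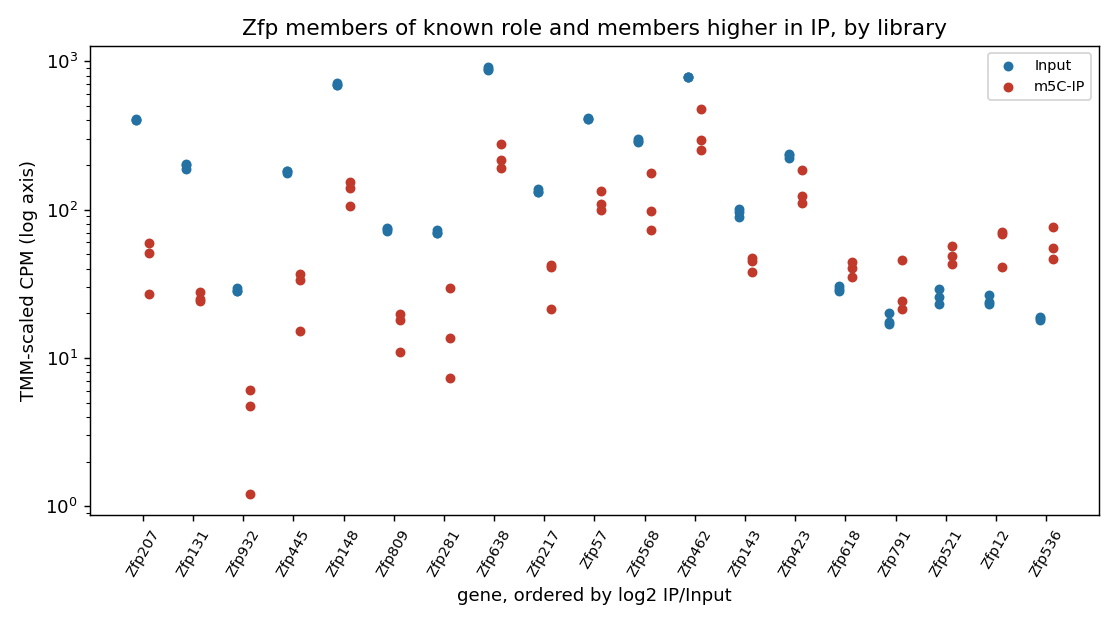
TMM-scaled CPM (vertical axis, log scale) of each Input library (blue) and m5C-IP library (red) for the 14 members of known role that were not higher in IP and 5 of the members that were higher, ordered by log2 IP/Input. Red points lie below blue from Zfp207 to Zfp423 and above them from Zfp618 to Zfp536.

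Of the 244 members, 122 lay in 16 chromosome clusters, here runs of at least 4 members with neighbouring starts at most 1000000 bases apart, and 7 of these clusters were on chromosome 7. The median log2 of a cluster ran from -2.90 on chromosome 13 to -0.88 on chromosome 6 and at the proximal end of chromosome 7. Members in clusters had a median of -1.92 and those outside -1.81. The 6 members that were higher lay outside clusters, 0 of 122 against 6 of 122. With library size scaling alone 8 members in clusters and 16 outside were higher, and the difference was not tested.

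To set the clusters side by side, the counts of each were taken as a share of all member counts of the same library, which removes the shift common to all members. The share in IP lay outside the range of the Input shares in 10 of 16 clusters, below it in 7 and above it in 3. The exact two-sided permutation p was 0.1 in each of these, the smallest that 3 libraries against 3 can give, and 0.16 after adjustment over the 16 clusters, so none passed 0.05.

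**Figure D3:**
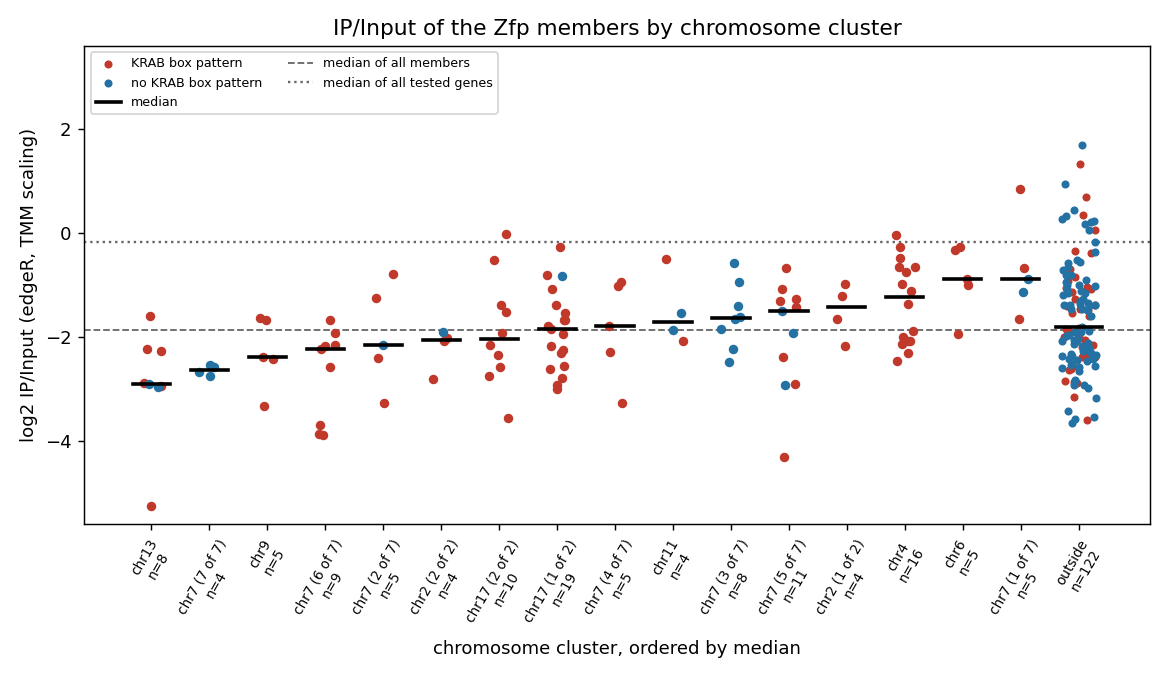
Log2 IP/Input (vertical axis, TMM scaling) of every Zfp member by chromosome cluster, ordered by the cluster median (black bar); members outside clusters are at the right, and colour marks the KRAB box pattern. Dashed and dotted lines are the medians of the members (-1.87) and of all tested genes (-0.17), and the clusters range from -2.90 to -0.88.

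The chromosome 13 cluster (chr13:67121660-67792512, 8 members) was the lowest, 1.03 below the member median on the log2 scale (-1.03). It holds Zfp759, Zfp458, Zfp595, Zfp459, Zfp748, Zfp738, Zfp65 and Zfp493. Its share of member counts was 1.37%, 1.36% and 1.37% in Input and 0.963%, 0.632% and 0.604% in IP, a ratio of means of 0.537. All 8 members were lower, from Zfp595 to Zfp738, for which 1256, 1352 and 1447 Input counts and 18, 15 and 12 IP counts gave a log2 of -1.60 (SE 0.23). Zfp459 held more Input counts (10093) than any other of the 8, with a log2 of -2.94 (SE 0.21), and the median exonic GC content of the cluster was 39.4%.

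The distal chromosome 7 cluster (chr7:127233061-127885996) held 4 members within a narrow span: Zfp771 at -2.75 (SE 0.31), Zfp668 at -2.67 (SE 0.33), Zfp553 at -2.58 (SE 0.27) and Zfp646 at -2.54 (SE 0.26). Its share was 1.11%, 1.12% and 1.12% in Input and 0.454%, 0.591% and 0.590% in IP, the lowest ratio of all clusters (0.488). None of the 4 had the KRAB box pattern, and their median exonic GC content was 55.0%.

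The chromosome 9 cluster (chr9:19622102-20605409, 5 members) had a median of -2.38, from Zfp26 at -3.33 (SE 0.23) to Zfp846 at -1.64 (SE 0.34), and a share ratio of 0.561. Zfp26 had 2640, 3144 and 3213 Input counts against 11, 13 and 6 in IP. A further cluster of chromosome 7 (chr7:41633203-43618285, 9 members, all with the KRAB box pattern) held Zfp977, Zfp715 and Zfp819 and had a median of -2.22 and a share ratio of 0.611, its least reduced member being Zfp975 at -1.68 (SE 0.19). Of the other clusters whose IP share was lower, chr7:12478293-12985714 had 0.685, from Zfp606 (-3.26) to Zfp324 (-0.79). Zfp324 ran from -1.18 to -0.37 with 1 library left out and did not pass in 5 of 6 such fits, and it had 0.18 with library size scaling alone. Without Zfp110, its member with the most IP counts, that ratio was 0.810 and the libraries overlapped. The chromosome 2 cluster at chr2:177464733-178078476 had 0.677, from Zfp970 (-2.81) to Zfp972 (-1.91), and the largest cluster, 19 members at chr17:21008903-23599487, had 0.825, from Zfp760 (-3.00) to Zfp229 (-0.26).

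The chromosome 4 cluster (chr4:145510759-147848366, 16 members) stood on the other side. It held 10.2%, 10.1% and 10.0% of member counts in Input and 13.1%, 14.1% and 14.04% in IP, a ratio of 1.36, or 1.28 without Zfp992, its member with the most IP counts. Its median log2 was -1.23, or 0.63 above the member median. All 16 members carried the KRAB box pattern. At the upper end, Zfp986 had 694, 806 and 819 Input counts and 23, 28 and 25 IP counts, a log2 of -0.03 (SE 0.20), and Zfp979 had 5304, 5782 and 6274 against 137, 141 and 143, a log2 of -0.47 (SE 0.10). Zfp600 had -0.66 (SE 0.14). At the lower end, Zfp990 had 5475, 6056 and 6337 against 22, 47 and 41, a log2 of -2.45 (SE 0.14). Neighbours thus differed, with 14 of the 16 lower and Zfp986 and Zfp933 not past the threshold. With library size scaling alone the log2 of Zfp986, Zfp979 and Zfp600 turned to 0.94, 0.51 and 0.32. Zfp933, the member farthest along the chromosome and named here after its values were seen, had 35, 116 and 34 IP counts, so that 1 library carried its log2 of -0.27.

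Near-identical sequence was most frequent in this cluster. The median share of exonic 31-base words that occur more than once in the genome was 87.7% on chromosome 4, against 3.51% over all members, and 15 of the 33 members above 50% belonged to it. How reads with several alignments were counted is not given in the sources used here, so values of such members may rest on their unique parts. Repeated sequence did not go with 1 direction: the chromosome 2 clusters had 79.8% (chr2:177464733-178078476, median log2 -2.05) and 55.2% (chr2:150114406-150485091, median -1.43). The words cover exons only, which in Zfp990 were 3498 of 28430 gene bases, and the sources used here do not say whether introns were counted. The part of reads with several alignments in these values was not tested. Over the 211 members with under 50% repeated words the median log2 was -1.85.

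The remaining clusters with a higher IP share were small. On chromosome 6 (chr6:47835661-48086593) 5 members had a median log2 of -0.88 and shares of 0.622%, 0.628% and 0.635% in Input against 1.24%, 1.18% and 0.906% in IP, a ratio of 1.76. Zfp746, a repressor linked to Parkin, had 483, 583 and 591 Input counts and 22, 17 and 7 IP counts, a log2 of -0.27 (SE 0.31) that did not pass. It ran from -0.68 to 0.16 with 1 library left out and was 0.70 with library size scaling alone. Zfp212 had -1.94 (SE 0.33). At the proximal end of chromosome 7 (chr7:6131491-7183562) 5 members also had -0.88, with shares of 0.887%, 0.812% and 0.863% against 1.11%, 1.94% and 1.44%, a ratio of 1.75. There Zfp583 had 1, 51 and 12 IP counts against 326, 345 and 379 in Input, so that its log2 of 0.85 (SE 0.47) lay anywhere from -0.78 to 1.37 when 1 library was left out. Zfp418 had -1.66 (SE 0.44).

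In 6 clusters the IP and Input shares overlapped. Their ratios ran from 0.840 (chr7:27731389-28014115, Zfp850 at -3.26 to Zfp974 at -0.94, which did not pass in 5 of 6 fits without 1 library) to 1.07 (chr17:32765496-33394641, Zfp952 at -3.56 to Zfp811 at -0.01). Between them lay chr7:24081924-25083492 (Zfp93 at -2.47 to Zfp61 at -0.58), chr11:58307069-59472474 (Zfp867 at -2.07 to Zfp39 at -0.50), chr7:29768552-30169750 (Zfp383 to Zfp382 at -0.67) and chr2:150114406-150485091 (Zfp345 at -2.18 to Zfp937 at -0.98). In the cluster holding Zfp568 that gene alone gave 52.0% of the IP counts.

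**Figure D4:**
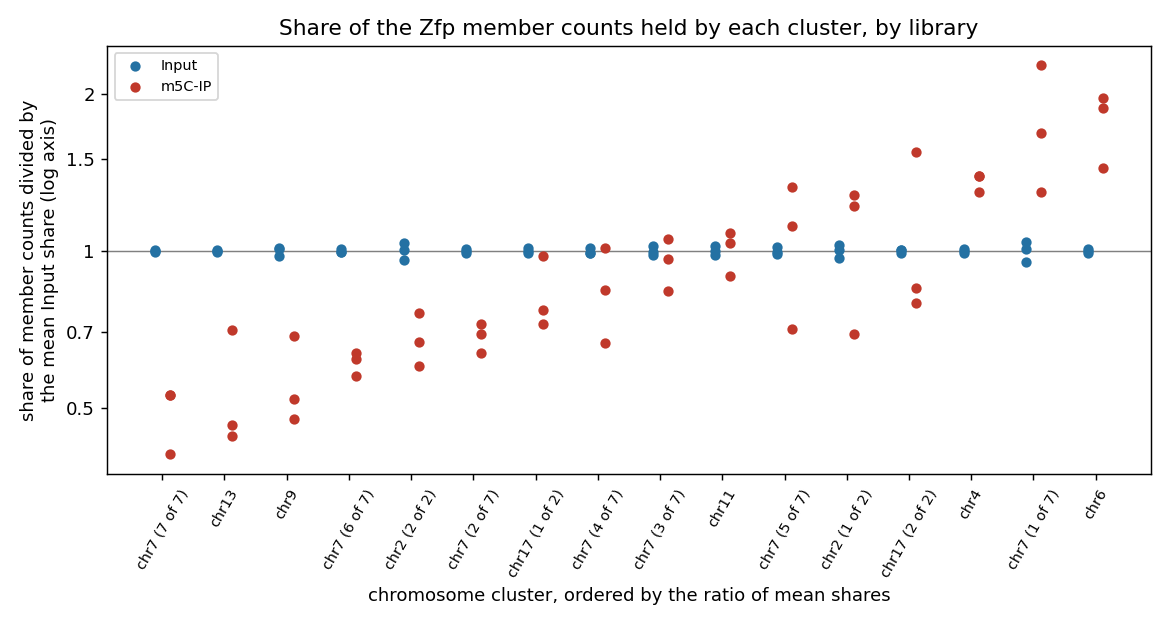
Share of all Zfp member counts held by each cluster in each library, divided by the mean of the 3 Input shares (vertical axis, log scale), for Input (blue) and m5C-IP (red), ordered by the ratio of means. Ratios run from 0.488 at the distal end of chromosome 7 to 1.76 on chromosome 6, and red points lie clear of the blue in 10 clusters.

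Members with and without the KRAB box pattern had close medians. The pattern asked for at least 7 of 10 conserved residues at fixed spacing, the tryptophan always among them. It was found in 141 members and not in 103. A KRAB box that lacks this tryptophan would be counted as absent. The median log2 was -1.88 and -1.85, and 86.5% and 86.4% were lower. This was so although the groups differed in other features. Median exonic GC content was 41.1% with the pattern and 48.3% without, and the median number of fingers 12 and 9. Finger number ran up to 36 with a median of 11. Across the 244 members its Spearman correlation with log2 IP/Input was -0.07 (Pearson -0.05). All 12 members in which the pattern found fewer than 2 fingers were lower, with a median log2 of -2.06.

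Base composition and gene length moved with IP/Input more than protein features did. Spearman's rho across members was 0.28 for exonic GC content (Pearson 0.28), 0.25 for CpG per kilobase (Pearson 0.23) and 0.24 for gene length (Pearson 0.24), against 0.03 for exonic length and -0.10 for repeated words. For protein length rho was 0.12. Over the other protein-coding genes rho was 0.31 for exonic GC and 0.25 for gene length. Input counts, which form one side of IP/Input, had a rho of -0.25 over the members and -0.38 over the other genes. These are correlations across genes of the same 6 libraries, which are not independent replicates. At matched exonic GC content the members lay close to other genes. Under 40% GC the median log2 was -2.08 over 62 members and -2.14 over 533 others, from 40% to 45% it was -2.01 and -1.88, from 45% to 50% -1.57 and -1.54, and at 50% and over -1.15 and -1.23. With a correction for exonic GC in the fit, the members' median was -1.58 and that of the other genes -1.52. Their difference was -0.07 in place of -0.33. An unplanned correction for the GC content of whole gene bodies gave -1.83 and -1.52, a difference of -0.30. Median GC content was 53.0% in the chromosome 6 cluster, 55.0% in the distal chromosome 7 cluster and 36.6% in the chromosome 4 cluster, whose median log2 values were -0.88, -2.63 and -1.23. With the correction for exonic GC these 3 clusters lay at 0.71, -1.14 and 0.83 relative to the member median. The part of GC content in the order of the clusters was not tested.

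**Figure D5:**
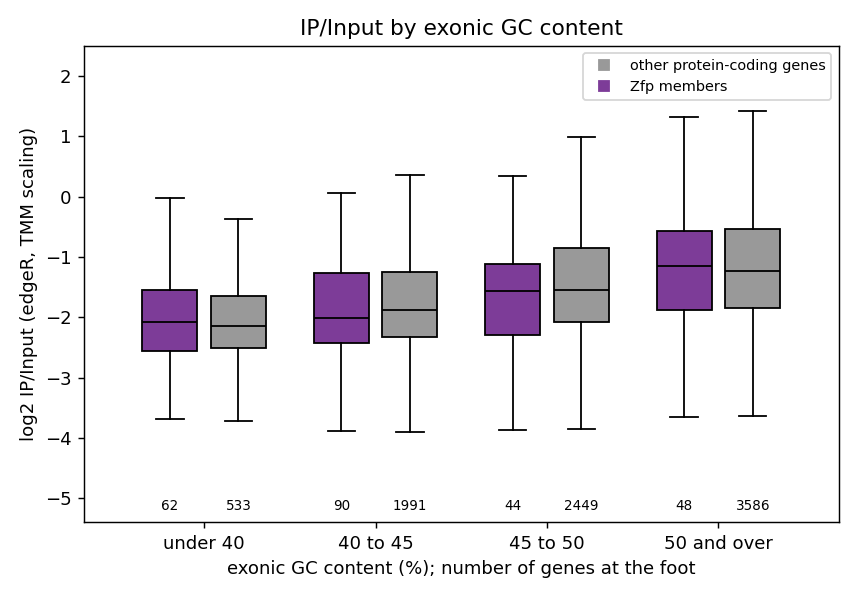
Log2 IP/Input (vertical axis, TMM scaling) by exonic GC content for Zfp members (purple) and other protein-coding genes with the same Input minimum (grey); boxes give the median and quartiles, whiskers reach 1.5 times the quartile range, and the number of genes stands at the foot. Both sets rise with GC content, and the medians of the highest class are -1.15 and -1.23.

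Peaks called by the study in each IP library were found in 60 members, 24.6% of 244, against 44% of the other protein-coding genes. The members are shorter, with a median gene length of 21436 bases against 31866, and the share rose with length: of members over 50000 bases 67.7% held a peak, against 70.4% of others, while between 20000 and 50000 bases the shares were 24% and 41.0%. By replicate, 17, 39 and 34 members held a peak, 37 members in 1 list, 16 in 2 and 7 in all 3. Those 7 were Zfp12, Zfp652, Zfp654, Zfp710, Zfp808, Zfp827 and Zfp960, with log2 IP/Input from -2.05 (Zfp960) to 1.32 (Zfp12). Of the 121 peaks in members 17 touched an exon (14.05%, against 21.8% of peaks in other genes), and repeat-masked bases were at least 50% of the peak in 47.1%, against 30.9%. The recorded strand was that of the gene for 34.7%, against 32.6% in other genes.

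Only 4 members held a region where peaks of all 3 replicates overlapped on 1 strand, and all lay in introns. They are shown for 3 of them as the bases common to all 3 peaks, 5′ to 3′ on the recorded strand, with bases outside the repeat mask of GRCm38 in capitals.
Zfp710: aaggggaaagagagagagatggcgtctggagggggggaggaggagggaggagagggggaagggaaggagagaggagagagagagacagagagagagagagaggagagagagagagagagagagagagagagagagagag
Zfp808: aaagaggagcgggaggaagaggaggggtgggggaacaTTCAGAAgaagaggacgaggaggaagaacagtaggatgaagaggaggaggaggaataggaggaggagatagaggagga
Zfp960: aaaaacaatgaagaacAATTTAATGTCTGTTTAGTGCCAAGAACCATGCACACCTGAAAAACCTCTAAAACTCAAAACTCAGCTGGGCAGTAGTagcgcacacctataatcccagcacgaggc

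The region in Zfp710 (chr7:80026682-80026820, plus strand, also the strand of the gene) held 3 cytosines and 77 guanines in 139 bases, and that in Zfp808 (chr13:62135793-62135907, plus strand, also the strand of the gene) held 5 cytosines and 57 guanines in 115 bases. On the recorded strand both were thus poor in the base that the antibody's mark is carried on. Whether the recorded strand is that of the RNA was not tested. The region in Zfp960 (chr17:17082945-17083067, minus strand, opposite to the gene) held 31 cytosines in 123 bases. In Zfp654 peaks of all 3 replicates overlapped on both strands of chromosome 16, and these regions are not shown. Like that in Zfp710, they were masked throughout. The first 300 bases on the plus strand (chr16:64806442-64806741, opposite to the gene) held 108 cytosines and 81 guanines. The 156 bases on the minus strand (chr16:64806449-64806604) held 37 cytosines and 60 guanines. Over all member peaks the median cytosine content of the recorded strand was 24%. Under 10% cytosine was found in 16 of 121 member peaks (13.2%), in 11 members, against 5.58% of peaks in other genes. In Zfp12, which was higher in IP, peaks of replicates 2 and 3 overlapped at chr5:143243118-143243267, opposite to the gene, while Zfp536 held peaks in 1 list.

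The proteins that KRAB zinc finger proteins work with were also mostly lower in IP. Of 24 listed cofactor genes, 22 were lower and 1 higher, with a median log2 of -1.84. Most of them had over 5000 Input counts. Of other protein-coding genes 81.7% were lower at the same Input minimum, 91.4% with 5000 to 10000 Input counts and 98.1% above 10000. Trim28, the scaffold that binds the KRAB box, had 6033, 6957 and 7559 Input counts and 46, 48 and 52 IP counts, a log2 of -2.24 (SE 0.12, edgeR adjusted p = 1.24e-10). Setdb1, the H3K9 methyltransferase it recruits, had -2.03 (SE 0.15), the heterochromatin proteins Cbx5, Cbx1 and Cbx3 had -2.12, -1.89 and -2.51, and the maintenance methyltransferase Dnmt1 had -1.77 (SE 0.08). The exception was the de novo methyltransferase Dnmt3a, with 1683, 1946 and 2064 against 63, 131 and 143, a log2 of 0.82 (SE 0.15, edgeR adjusted p = 7.64e-05), while Dnmt3b had -1.98 (SE 0.17) and the remodeller Chd3 had -0.19 (SE 0.18) and did not pass.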

How the data were processed

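Counts per gene were deposited by the authors as whole numbers for each library, with no normalization. According to the study's methods and the submitters' processing notes, reads were trimmed with Trimmomatic 0.39 and aligned with HISAT2 2.1.0 to mm10 with spike-ins. The deposited tables end in HTSeq summary lines, which were 19.0% to 19.3% of records in Input and 71.4% to 71.7% in m5C-IP and were left out. The strand setting of the counting is not given in the sources used here, so overlapping and antisense genes are uncertain. Peak intervals and strands were deposited by the authors from MACS2, called for each library and strand; they carry no usable score.

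Groups came from library titles, since the antibody label did not follow them. Symbols, biotypes and coding exons came from GENCODE M21 (GRCm38), matched for 99.9% of gene rows. All tested genes were fitted with edgeR 4.0.16 in R 4.3.3 (glmQLFit, glmQLFTest, TMM, filterByExpr, Benjamini-Hochberg at 0.05). The standard error was the absolute log2 divided by the square root of F. Alternatives included DESeq2 1.42.0. Fingers were a pattern in the longest protein translated from GENCODE exons. The KRAB box pattern was sought in every translated transcript of a gene. RefSeq proteins had been planned for both. The total share of the members was given without its planned test, because Input counts chose the members. Replicate numbers were in the titles of both groups.

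Named members were the 8 highest and 8 lowest called without overlap, the 5 with most Input counts, both ends of each cluster, the neighbours of the minimum, and 18 genes of known role; Zfp703 and Zfp36 had 8 and 97 Input counts and were not members. The members and lists were chosen with earlier results of these data known. Intervals and floors cover counting error only. The scripts were tested on simulated data.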

Additional observations from a re-analysis of the deposited data

How the results depend on the processing

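Over all tested genes the number called was within 1.5 times of 16591 in every alternative but the thinning of Input to IP depth (6146). Thinning gave 76 members lower and 28 higher of 192 tested, a member median of -0.55 and 12 cofactor genes lower. Library size scaling alone gave 133 lower, 24 higher and -0.89, and 67.2% of all calls were then higher, against 48.7%. Without a filter beyond 1 count 3 members were higher and the median was -2.31. The median was -1.70 with RLE scaling and with DESeq2. It was -1.58 with the exonic GC correction and -1.83 with the unplanned correction on gene bodies. Over members overlapping no other gene (chosen after seeing the data) it was -1.93. With at least 500 Input counts it was -1.68 and with at least 2000 -1.99, where 13 and 2 members were higher. Leaving out 1 library gave 199 to 210 lower, 3 to 7 higher and medians of -1.90 to -1.79. The member share ratio was 0.669 and 0.619 with those minimums, and 0.724 as a share of protein-coding counts. Peaks on the strand of the gene were in 28 members, and peaks overlapping between all 3 replicates in 4. To see whether replicate numbers were pairs, the deviation of each library from its group mean in log2 CPM was correlated across 13664 genes. Between same-numbered Input and IP libraries the Pearson r of these deviations was 0.0155 to 0.0323, each under 0.1. The numbers were therefore not taken as pairs, though the deviations of each library correlated best with those of its own number. The replicate block gave 15435 calls over all genes, 202 members lower and 3 higher. With the GC correction as well it gave a member median of -1.63 and 3 higher. The difference between the highest and the lowest cluster median moved by less than 1 SD over IP replicates under every alternative run.

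Named genes past the threshold in the TMM fit or in the alternative turned as follows. With library size alone Zfp324 had 0.18, Zfp423 0.27, Zfp811 0.97, Zfp229 0.72, Zfp979 0.51, Zfp600 0.32, Zfp974 0.03, Zfp652 0.42 and Zfp986 0.94. Zfp746 (0.70), Zfp39 (0.47), Zfp61 (0.40) and Zfp382 (0.30) also turned there but passed in neither. Zfp811, Zfp986, Zfp229 and Zfp746 crossed 0 without passing under other alternatives too. With Input thinned Zfp324 had 0.78, Zfp423 0.60, Zfp738 0.03, Zfp462 0.21, Zfp937 0.25, Zfp143 0.17, Zfp229 0.96, Zfp979 0.83, Zfp600 0.78, Zfp652 0.69 and Zfp986 1.17. With the GC correction Zfp979 had 0.00 and Zfp986 0.49, and with block and GC correction Zfp979 had 0.01. The low depth of IP limits every value here, and the cause of these changes was not tested.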

Other observations

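Of the 9 listed Zfp genes with 0 Input counts, 5 lay wholly inside another gene of the same strand, and these were all of the nested genes among the 119 under the minimum.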
